A study of Xenopus tropicalis x Xenopus laevis and Xenopus laevis and Xenopus tropicalis with 8 samples.

Results

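Among the transcripts of *Xenopus tropicalis*, 112 differed strongly and in the same direction between the libraries numbered 1 and 3, both in *X. tropicalis* embryos and in te × ls hybrids. A transcript was taken where its TPM (its share of the transcripts of a library, scaled to the same total in each) was 1 or more in at least 2 of these 4 libraries, and where log2((TPM 1 + 1)/(TPM 3 + 1)) was above 2 in both pairs of libraries or below -2 in both. Of 11559 *X. tropicalis* transcripts at the TPM minimum, 0.969% met the rule, of 34647 transcripts of both species in all. The 112 members carry 94 gene symbols, and 16 have no symbol. Libraries 1 held more of 50 members (0.433% of the 11559) and libraries 3 held more of 62 (0.536%). The members were chosen by these values, so the values are given as a description, without a test.

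The study sequenced polyadenylated RNA of whole embryos at stage 9, collected at 9 h post-fertilization, in 8 libraries of 4 groups. The groups are *X. laevis* embryos, le × ts hybrids (*X. laevis* egg, *X. tropicalis* sperm), te × ls hybrids (*X. tropicalis* egg, *X. laevis* sperm) and *X. tropicalis* embryos, all without a named strain, transgene or treatment. Each group has 2 libraries, one numbered 1 and one numbered 3, and the labels do not say what a number marks or how many embryos were pooled. The study describes le × ts embryos as viable and te × ls embryos as dying at about the time of genome activation. Since nothing says that the libraries of a group come from separate clutches or animals, the p-values below measure only the spread between these libraries.

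An amphibian egg is loaded with messenger RNA, and the early cleavages run on that maternal supply while the embryo's own genome is nearly silent. At the mid-blastula transition the genome is activated, maternal RNAs begin to be cleared, and transcripts from the mother's and the father's chromosomes are added. At stage 9, soon after this transition, much of an embryo's RNA can still be that of the egg. *X. tropicalis* is a diploid frog, while *X. laevis* is an allotetraploid in which many genes are kept as a pair of homeologs, so that 1 symbol can stand for several *X. laevis* transcripts.

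Reads were counted by the authors only where they matched a transcript of a combined database of both species with no mismatch and in 1 place. A read that carries a base different from the database sequence is lost, and so is a read shared by several transcripts. Low TPM in a library therefore means few perfectly matching reads of that database entry, and in bulk embryos fewer cells with a transcript and less of it per cell cannot be told apart. The TPM of a library sums to between 999146 and 999534, and the depth is not kept in TPM. Ratios of very low values place *X. tropicalis* library 3 at 0.323 times the reads of *X. tropicalis* library 1, and te × ls libraries 1 and 3 at 1.52 and 1.12 times, so small values in *X. tropicalis* library 3 are the least certain there. Of the *X. laevis* egg libraries, le × ts library 3 was the shallowest, at 0.439 times the reads of *X. laevis* library 1. *X. tropicalis* transcripts held between 99.6% and 99.9% of TPM in the libraries of *X. tropicalis* eggs.

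The members formed the far ends of a difference between numbers that the pairs shared. In the *X. tropicalis* pair 153 transcripts were past 2 in either direction, and in the te × ls pair 137 were. The 112 members are 73.2% of the former and 81.8% of the latter, and 0 transcripts were past 2 in opposite directions. The median log2 difference over all 11559 transcripts was 0.04 in each pair, on values scaled to the same total in each library. Summed over the 50 members higher in libraries 1, TPM was 1802 and 1812 in libraries 1 of *X. tropicalis* and te × ls, and 188 and 208 in libraries 3. For the 62 members higher in libraries 3, the sums were 208 and 184 in libraries 1 and 1896 and 1966 in libraries 3. All members together summed to 2011 and 1996 TPM in libraries 1 and to 2084 and 2175 TPM in libraries 3, so the sets nearly offset each other.

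**Figure D1:**
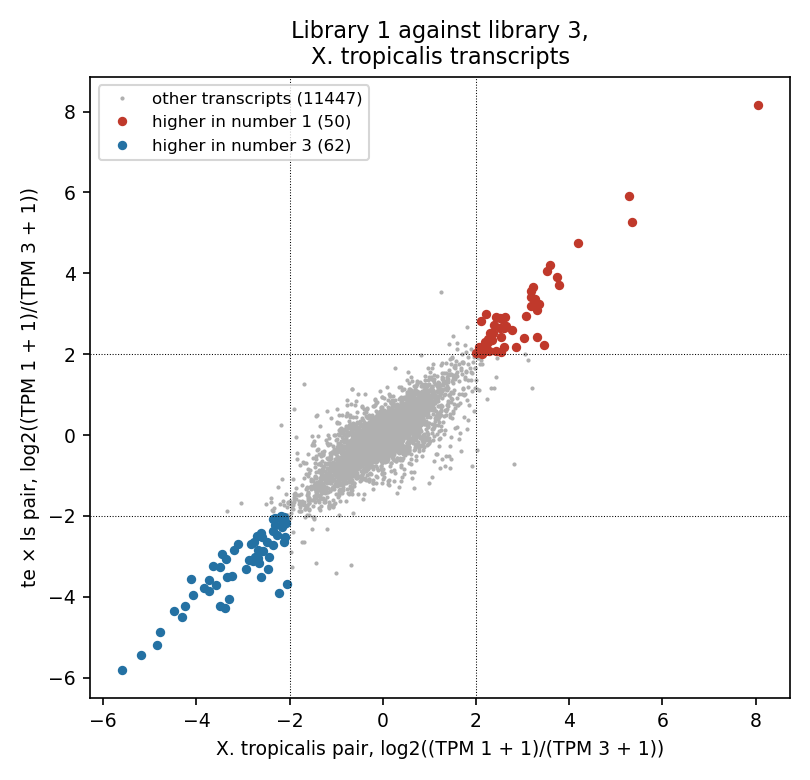
Log2 difference between library 1 and library 3 in the *X. tropicalis* pair (horizontal axis) and in the te × ls pair (vertical axis), for 11559 *X. tropicalis* transcripts on the scale log2(TPM + 1). Dotted lines mark the cutoff of 2, and the 50 and 62 members lie beyond it in the upper right and lower left corners, with none in the other corners.

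Where a member was high, its level was nearly the same in both kinds of embryo. In the pair of libraries where a member was high, te × ls differed from *X. tropicalis* by a median log2 difference of 0.03, and 109 of 112 members lay within 0.5. Over all 11559 transcripts, 95.8% lay within 0.5 in libraries 1 and 92.4% in libraries 3. In the lower pair some members differed more between the kinds of embryo. Examples are *kcne1l* (-1.26 in libraries 1) and *vamp3* (1.06 in libraries 3), as te × ls minus *X. tropicalis* on the log2 scale. Where a member was low it was often close to absence, with 62 of 112 under 1 TPM in both lower libraries and 7 listed at 0 in both. The median of the higher pair was 14.5 TPM for members higher in libraries 1 and 16.4 TPM for members higher in libraries 3. Some members lay close to the cutoff. Just inside it were *abhd12* at a smaller difference of 2.01, *tubg1* at 2.01 and *rit1* at 2.01. Just outside were *lhfpl3* at 1.995, *asrgl1* at 1.985 and *txndc17* at 1.985. Within 0.2 of the cutoff there were 29 members and 27 other transcripts.

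**Figure D2:**
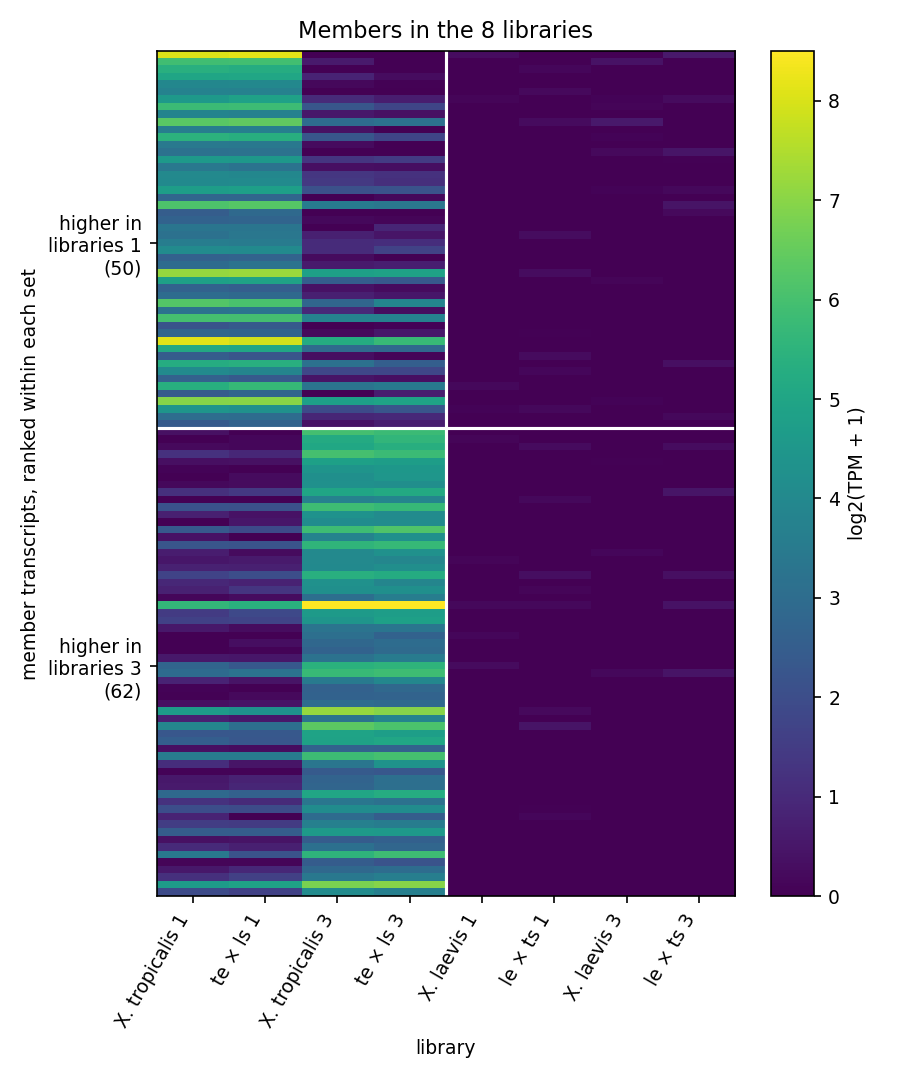
The 112 members (rows, ranked within each set by the smaller of their 2 differences) in the 8 libraries (columns), coloured by log2(TPM + 1). The upper 50 rows are bright in libraries 1 of *X. tropicalis* and te × ls, the lower 62 rows are bright in libraries 3, and no member exceeds 0.495 TPM in the 4 libraries of *X. laevis* eggs on the right.

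A broad set of 17 members, 10 of them higher in libraries 1, holds mainly enzymes of nucleotides, folate, detoxification and lipids, together with a peptidase (*tpp1*), a glucosidase (*athl1*) and a retinal-binding protein (*rlbp1*). The grouping by known function was made after the members were seen. The share of each such set over all transcripts at the TPM minimum was not counted, so the set sizes are a description only. The widest difference of all belonged to *dctpp1*, whose enzyme hydrolyses dCTP and so trims the pool of DNA precursors. Its transcript stood at 264 and 285 TPM in libraries 1 of *X. tropicalis* and te × ls, and is listed at 0 in both libraries 3. It was the second most abundant of all members in its higher pair. A transcript of *ggh*, the hydrolase that shortens the glutamate tails of folates, behaved in the same way at a lower level, with 12.6 and 12.2 TPM in libraries 1 and 0 in both libraries 3. With a 0 on one side the size of the difference depends on the pseudocount, so no fold is stated for either gene.

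A transcript of *gsta4*, a glutathione transferase that conjugates products of lipid oxidation, stood at 80.037 and 84.8 TPM in libraries 1 and 6.97 and 8.11 TPM in libraries 3 (log2 differences 3.35 and 3.24 in *X. tropicalis* and te × ls). For *dcxr*, a reductase of dicarbonyls and sugars, the values were 37.4 and 39.8 TPM in libraries 1 and 7.93 and 4.82 TPM in libraries 3. A transcript of the cytochrome P450 gene *cyp2d6* was at 9.699 and 8.45 TPM in libraries 1 and 0.271 and 0.235 TPM in libraries 3. These transcripts were lower in libraries 3, but another P450 transcript went the other way. It belongs to *cyp2a13*, at 0.924 and 0.76 TPM in libraries 1 and 18.8 and 13.7 TPM in libraries 3. A list of glutathione and xenobiotic enzymes, with 13 transcripts at the TPM minimum, held 0 members, beside the 0.969% of all transcripts. The list leaves out *gsta4*, *cyp2d6* and *cyp2a13*, so the 0 does not mean that such enzymes had no members. Of the 13, 12 had log2 differences within 1 in both pairs, beside 91.4% of all transcripts.

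The *dut* transcript, for the enzyme that removes dUTP and so keeps uracil out of DNA, stood at 14.046 and 7.52 TPM in libraries 1 and 80.5 and 67.9 TPM in libraries 3. Transcripts of nucleotide pool enzymes are therefore found in both directions. The *dut* member held 33.1% of its symbol in libraries 3, and the *dut* sum differed by only -0.25 and -0.27 in *X. tropicalis* and te × ls. The *rdh10* transcript, for a retinol dehydrogenase on the path to retinoic acid, is listed at 0 in both libraries 1 and stood at 12.4 and 13.5 TPM in libraries 3. A transcript of *sccpdh* reached 19.972 and 21.5 TPM in libraries 3 against 0.054 and 0 TPM in libraries 1, and one of *phyhd1* reached 39.8 and 36.8 TPM against 2.25 and 3.02 TPM. The others of this set higher in libraries 1 were *hsd17b6*, *tpp1*, *athl1*, the ceramide synthase gene *cers2* and *abhd12*. The *cers2* member stood at 8.12 and 8.63 TPM in libraries 1 and 0.965 and 0.208 TPM in libraries 3. That of *abhd12* stood at 4.38 and 5.49 TPM and 0.338 and 0.586 TPM. It held 25.1% of its symbol in libraries 1, and the *abhd12* sum differed by only 0.10 and 0.17 in *X. tropicalis* and te × ls. On the other side were *plb1* and *rlbp1*.

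Transcripts for ribosomes, the nucleolus and translation made up 10 members, 4 higher in libraries 1 and 6 in libraries 3. That of *gnl3*, nucleostemin, a nucleolar GTPase of dividing cells, stood at 40.028 and 37.9 TPM in libraries 1 and is listed at 0 in both libraries 3. The ribosomal protein transcript *rpl34* stood at 275 and 239 TPM in libraries 1 and 36.9 and 52.016 TPM in libraries 3. For *mrps10*, a protein of the small mitochondrial ribosomal subunit, the values were 123 and 126 TPM and 27.042 and 29.3 TPM in libraries 1 and 3. All 3 transcripts were high in libraries 1 of both embryo types, and only that of *gnl3* is listed at 0 in libraries 3. The gene itself was not absent there. Summed over its *X. tropicalis* transcripts, *gnl3* stood at 164 and 164 TPM in libraries 1 and 133 and 132 TPM in libraries 3.

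*gtpbp3*, a GTPase that modifies mitochondrial transfer RNAs, was the fourth of these, at 69.4 and 74.9 TPM in libraries 1 and 10.989 and 9.34 TPM in libraries 3. In the other direction, the transcript of *nifk*, a nucleolar protein that binds Ki-67, stood at 0.348 and 0 TPM in libraries 1 and 13.1 and 18.5 TPM in libraries 3. The large mitochondrial ribosomal subunit transcript *mrpl16* stood at 5.802 and 4.07 TPM in libraries 1 and 42.2 and 44.8 TPM in libraries 3. Mitochondrial ribosomal proteins of the small and the large subunit were thus found on opposite sides. A transcript of *caprin1*, an RNA-binding protein of stress granules, was at 24.3 and 19.005 TPM in libraries 1 and 140.2 and 124 TPM in libraries 3. It held 24.8% of its symbol in libraries 3, and the *caprin1* sum differed by -0.62 and -0.60 in *X. tropicalis* and te × ls. The transcript of *eif4e2*, a cap-binding protein that can hold back translation, was at 24.5 and 29.4 TPM in libraries 1 and 110.1 and 123 TPM in libraries 3. The last of the set, *nop2*, a methyltransferase of ribosomal RNA, and *rpp30*, a subunit of ribonuclease P, stood between 5.31 and 11.4 TPM in libraries 3.

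Histones, the nuclear lamina and the cytoskeleton gave 9 members, 6 of them higher in libraries 3. The most abundant member of all was a transcript of *h1foo*, the linker histone of the oocyte, which packs chromatin in the egg and the cleaving embryo until somatic H1 replaces it. It stood at 48.2 and 41.5 TPM in libraries 1 and 357 and 361 TPM in libraries 3 (log2 differences -2.86 and -3.09 in *X. tropicalis* and te × ls). Libraries 1 and 3 were well apart, and the embryo types of 1 number were close. The transcript of *anxa2*, a calcium-dependent protein that binds membranes and actin, stood at 4.13 and 2.79 TPM in libraries 1 and 56.9 and 69.7 TPM in libraries 3.

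The nuclear lamin transcript *lmna* was on the other side, with 54.2 and 55.6 TPM in libraries 1 and 3.82 and 2.42 TPM in libraries 3. Of the core histone *hist1h2bm*, 1 transcript was on each side. The one listed as Tan201204_XENTRc2st08_000032080 stood at 8.02 and 9.46 TPM in libraries 1 and 0.674 and 0.385 TPM in libraries 3. The one listed as ENSXETT00000065061 stood at 1.18 and 0.382 TPM in libraries 1 and 9.199 and 19.6 TPM in libraries 3. Histone genes of 1 type are near copies of each other, so reads shared by copies are lost and the values of either transcript are uncertain. A minor transcript of *tubg1*, the tubulin that seeds microtubules at the centrosome, was at 2.81 and 2.13 TPM in libraries 1 and 16.3 and 11.6 TPM in libraries 3. The remaining members here were *amotl1* and the dynein light chain genes *tctex1d2* and *tctex1d4*, of which only *tctex1d2* was higher in libraries 1, at 62.4 and 60.6 TPM against 12.6 and 12.4 TPM in libraries 3.

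Transcripts of mitochondrial and peroxisomal genes gave 9 members, and 7 were higher in libraries 3. The *pam16* transcript, for a part of the motor that pulls proteins into the mitochondrial matrix, stood at 1.25 and 1.63 TPM in libraries 1 and 31.2 and 35.015 TPM in libraries 3. That of *slc25a11*, the carrier that exchanges oxoglutarate and malate, stood at 0.712 and 0.669 TPM and 15.3 and 17.5 TPM. Both were higher in libraries 3, as were *acadsb*, at 1.91 and 1.76 TPM in libraries 1 and 11.9 and 10.9 TPM in libraries 3, and *pisd*, *ndufa2* and *slc25a43*, which stood between 5.60 and 13.4 TPM in libraries 3. The exceptions were *pex5l*, related to the import receptor of peroxisomes, at 43.027 and 39.6 TPM in libraries 1 and 3.83 and 2.44 TPM in libraries 3, and *abhd10*, at 39.7 and 50.9 TPM and 8.66 and 10.4 TPM. The *ndufa2* member held only 6.22% of its symbol in libraries 3, and the *ndufa2* sum differed by 0.61 and -0.03 in *X. tropicalis* and te × ls.

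Transcripts of genes of membrane traffic and protein sorting gave 11 members, 8 of them higher in libraries 3. The transcript of *zdhhc16*, an enzyme that attaches palmitate to proteins, stood at 3.403 and 3.31 TPM in libraries 1 and 57.2 and 50.9 TPM in libraries 3. A transcript of *chmp1b*, a subunit of the ESCRT-III complex that pinches off membranes, stood at 10.6 and 10.5 TPM and 55.4 and 63.022 TPM. Both were lower but still present in libraries 1. The sums of their symbols differed less, by -0.74 and -0.53 for *zdhhc16* and by -0.08 and -0.10 for *chmp1b* in *X. tropicalis* and te × ls. A transcript of *yipf3*, a Golgi membrane protein, stood at 0.422 and 0.547 TPM in libraries 1 and 15.1 and 13.9 TPM in libraries 3. That transcript was under 1 TPM in both libraries 1. It held 32.6% of its symbol in libraries 3, and the *yipf3* sum differed by -0.75 and -0.63.

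The symbol *dnajc5*, for the cysteine string protein of secretory vesicles, has a pair of members. Its transcript Tan201204_XENTRc2st09_000043237 stood at 0 and 0.183 TPM in libraries 1 and 17.9 and 20.973 TPM in libraries 3. The other, Tan201204_XENTRc1st16_000021493, stood at 0 and 0.07 TPM and 5.42 and 6.62 TPM. Both were higher in libraries 3. On the other side, the SNARE protein transcript *vamp3* stood at 73.9 and 65.7 TPM in libraries 1 and 5.79 and 13.2 TPM in libraries 3, the transcript of *sgsm1*, which acts on Rab GTPases, at 15.2 and 15.6 TPM and 1.63 and 1.202 TPM, and *dennd3* was also higher in libraries 1. The remaining members, *stard10*, *st5* and *atp6v0e2*, were higher in libraries 3. The *stard10* member held 28.3% of its symbol there, and the *stard10* sum differed by -0.79 and -0.85 in *X. tropicalis* and te × ls.

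Receptors, ligands and adhesion proteins gave 13 members, most of them genes known from differentiated tissues, 6 higher in libraries 1 and 7 in libraries 3. The transcript named *klrd1*, for a lectin-like receptor known from natural killer cells of mammals, had the widest difference among members higher in libraries 3. It stood at 0.291 and 0 TPM in libraries 1 and 61.3 and 54.6 TPM in libraries 3. Its mirror image was a transcript named *or5v1*, an odorant receptor symbol, at 58.2 and 59.5 TPM in libraries 1 and 0.521 and 0 TPM in libraries 3. Libraries of 1 number were alike for both transcripts, and the names are those of the database.

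A transcript of the receptor tyrosine kinase gene *flt3* stood at 14.2 and 14.6 TPM in libraries 1 and 0.147 and 0.043 TPM in libraries 3, and one of the collagen gene *col14a1* at 13.2 and 12.4 TPM and 0.474 and 0.305 TPM. Higher in libraries 3 were the neuropeptide genes *nmb* (neuromedin B), at 1.75 and 2.67 TPM in libraries 1 and 24.1 and 25.5 TPM in libraries 3, and *pnoc* (the nociceptin precursor), at 4.84 and 3.98 TPM and 28.983 and 31.5 TPM. The melanocortin receptor transcript *mc5r* stood at 0.715 and 1.49 TPM in libraries 1 and 17.7 and 17.975 TPM in libraries 3. The nicotinic receptor subunit *chrnb4* was at 0.808 and 0.356 TPM and 10.018 and 14.4 TPM. The adhesion protein transcript *cntn5* was at 6.91 and 8.41 TPM in libraries 1 and 0.546 and 0.627 TPM in libraries 3. The other members of this set were *itga6* and *lingo4*, higher in libraries 1, and *epha6* and *gp1bb*, higher in libraries 3, and none of these 4 exceeded 7.64 TPM.

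Ion channels and intracellular signalling gave 9 members, 6 of them higher in libraries 1. The *traf3ip3* transcript, named for a partner of the signalling adaptor TRAF3, stood at 23.5 and 28.4 TPM in libraries 1 and 1.02 and 0.6 TPM in libraries 3. The *shank3* transcript, for a scaffold known from synapses, stood at 27.5 and 28.972 TPM and 4.78 and 4.22 TPM. Higher in libraries 3 was *pkib*, an inhibitor of protein kinase A, with 0 and 0.434 TPM in libraries 1 and 16.4 and 15.973 TPM in libraries 3. The potassium channel subunit *kcne1l* differed between the embryo types in libraries 1, at 9.904 and 3.55 TPM in libraries 1 and 44.7 and 57.6 TPM in libraries 3 (log2 differences -2.07 and -3.69). The calcium channel subunit transcript *cacnb4* was at 6.004 and 5.701 TPM in libraries 1 and 0.163 and 0.473 TPM in libraries 3, and that of *rit1*, a small GTPase, at 7.27 and 6.98 TPM and 0.901 and 0.974 TPM. Also higher in libraries 1 were *gucy1a2* and *hsh2d*.

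Transcription factors and cofactors gave 3 members. The zinc finger factor *casz1* stood at 23.5 and 22.4 TPM in libraries 1 and 1.46 and 1.76 TPM in libraries 3. The paired box factor *pax7*, known from neural crest and muscle precursors, was among the lower members, at 5.34 and 4.79 TPM and 0.322 and 0.183 TPM, and the cofactor *lmo2*, known from blood formation, stood at 0 and 0.258 TPM in libraries 1 and 6.16 and 7.08 TPM in libraries 3. Ubiquitin and SUMO enzymes gave 4 members. The ubiquitin ligase *rnf14* stood at 11.1 and 11.7 TPM in libraries 1 and 0.302 and 0 TPM in libraries 3. Transcripts of *desi2* and *fbxo47* were also higher in libraries 1, and *trim9* was higher in libraries 3, at 8.65 and 8.92 TPM there. The *desi2* member held 14.3% of its symbol in libraries 1, and the *desi2* sum differed by only 0.09 and 0.03 in *X. tropicalis* and te × ls.

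Of the 11 members with a symbol outside these sets, *fam203a* had the widest difference, at 0 and 0.099 TPM in libraries 1 and 35.5 and 46.8 TPM in libraries 3. A transcript of *vwa3b* stood at 0.275 and 0.29 TPM and 27.7 and 25.3 TPM, and one of *sncg*, gamma-synuclein, at 3.69 and 3.56 TPM and 46.4 and 51.2 TPM. All 3 were higher in libraries 3, as were *cpn1*, at 0.681 and 0.319 TPM and 19.2 and 16.3 TPM, *c7orf49*, at 0.621 and 0.202 TPM and 15.001 and 18.9 TPM, *rell1* and *cpne2*. Higher in libraries 1 were *trg*, *cdr2l*, *c19orf25* and *xlcof22*. The *trg* transcript stood at 8.05 and 8.19 TPM in libraries 1 and 0 in both libraries 3. That of *cdr2l* stood at 3.597 and 4.28 TPM in libraries 1 and 0 and 0.066 TPM in libraries 3. The *rell1* and *xlcof22* members held 24.6% and 46.1% of their symbols in their higher pairs. The *rell1* sum differed by only -0.02 and -0.14 in *X. tropicalis* and te × ls, and the *xlcof22* sum by 0.45 and 0.26. The 16 transcripts without a symbol are 14.3% of the members, against 6.27% of the transcripts at the TPM minimum. The widest among them was xb201405_301608321, at 0.164 and 0.108 TPM in libraries 1 and 32.7 and 39.5 TPM in libraries 3, followed by xb201405_301608055, at 1.31 and 0.908 TPM and 62.3 and 54.8 TPM. In the other direction BarbosaMorais2012_XENTRbrain_000077905 stood at 31.3 and 31.8 TPM in libraries 1 and 0.781 and 0.224 TPM in libraries 3, and BarbosaMorais2012_XENTRbrain_000040920 at 9.88 and 9.69 TPM and 0.194 and 0 TPM. The most abundant, Tan201204_XENTRc2cell2_000026942, stood at 143 and 149.8 TPM in libraries 1 and 27.2 and 28.8 TPM in libraries 3.

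By the source of the database entry, 26 members (23.2%) have identifiers that begin with xb201405, against 13.8% of the 11559 transcripts at the TPM minimum. Entries beginning with Tan201204 made up 25.0% of members and 34.7% of those transcripts, and entries beginning with BarbosaMorais2012 made up 23.2% and 20.6%. These shares are given as a description.

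The question whether another transcript of the same symbol made up for the difference could be put to 33 of the 96 members with a symbol (34.4%), those with a further *X. tropicalis* transcript at the TPM minimum. Among all named transcripts at the minimum, 13.4% have such a partner. A further 4 members had only partners below the minimum, and 59 had no partner in the table. For 24 of the 33, of 22 symbols, the sum over all *X. tropicalis* transcripts of the symbol differed by less than 1 on the log2 scale in both pairs. In 22 of these 24 the member held less than 50% of the symbol's TPM even where it was high (3.14% to 63.7%, median 25.0%). For most of them, then, the bulk of the symbol's TPM lay in other transcripts. A member with less than 50% of its symbol cannot move the sum past 1 where its partners are level. A sum within 1 is therefore no sign in itself that a partner made up for the difference. Of the 39 partners at the minimum that are not members, 32 were within 1 in both pairs, and over all 11559 transcripts 91.4% were. The sign of the partner was opposite to that of the member in both pairs for 24 of the 39, the same for 11, and mixed for 4. In this count the *hist1h2bm* partners were set only against the member higher in libraries 1. Against the *hist1h2bm* member of the other direction, their opposite and same signs swap.

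Partners that were both more abundant and nearly level include that of *gnl3*, xb201405_38649399, at 123 and 124 TPM in libraries 1 and 129.7 and 129 TPM in libraries 3. With it, the *gnl3* sum differed by 0.31 and 0.31 in *X. tropicalis* and te × ls. The partner of *rdh10* stood at 124 and 122 TPM in libraries 1 and 124 and 131 TPM in libraries 3, and its sum differed by -0.13 and -0.25. For *zdhhc16* the partner was at 78.7 and 81.2 TPM and 80.9 and 71.4 TPM. In each of these the gene as a whole differed far less between numbers than the member did. The *hist1h2bm* sum over 7 transcripts differed by 0.12 and -0.05, and the 2 members of opposite direction held 3.61% and 6.05% of it.

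A partner moving clearly the opposite way, by more than 1 in both pairs, was found for 4 members. Besides the *hist1h2bm* transcripts, each of which is the opposite of the other, these were *slc25a11* and *rit1*. The second *slc25a11* transcript, Tan201204_XENTRc2st22_000019298, stood at 22.2 and 23.1 TPM in libraries 1 and 8.69 and 9.96 TPM in libraries 3, so that one transcript was the major one in libraries 1 and the other in libraries 3. Their sum differed by -0.06 and -0.20, within 1 in both pairs. For *rit1* the partner stood at 23.7 and 25.5 TPM in libraries 1 and 66.4 and 61.3 TPM in libraries 3, outweighed the member, and left the sum higher in libraries 3 (-1.09 and -0.92). A weaker exchange was seen for *fam203a*, whose partner BarbosaMorais2012_XENTRmuscle_n000003994 stood at 33.5 and 31.4 TPM in libraries 1 and 15.1 and 19.993 TPM in libraries 3 (sum -0.29 and -0.67). For *sccpdh* the partner stood at 64.5 and 64.9 TPM and 39.998 and 36.7 TPM (sum 0.10 and 0.16). Slighter shifts against the member were seen in the more abundant partners of *tubg1*, at 29.8 and 31.1 TPM in libraries 1 and 20.9 and 20.952 TPM in libraries 3, of *nop2*, at 26.1 and 26.5 TPM and 19.4 and 18.9 TPM, and of *chmp1b*, at 149 and 162 TPM and 113 and 121 TPM. For *dnajc5* the main partner stood at 70.2 and 73.7 TPM and 60.8 and 67.4 TPM, and the sum differed by -0.49 and -0.41.

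For 9 members with a partner the symbol as a whole stayed apart between numbers in at least 1 pair. These were *rpl34*, *rit1*, *pkib*, *nifk*, *cyp2a13*, *h1foo*, *pisd*, *kcne1l* and *eif4e2*. The member was the main transcript in 8 of them, at 53.2% to 97.0% of the symbol in its higher pair, and *rit1* was the exception at 22.4%. The second *h1foo* transcript stood at 14.3 and 16.7 TPM in libraries 1 and 17.9 and 22.5 TPM in libraries 3, so the *h1foo* sum still differed by -2.57 and -2.70. The *rpl34* sum differed by 2.48 and 1.79. For *gsta4*, *dctpp1*, *anxa2* and *klrd1* the table holds no second *X. tropicalis* transcript under the symbol, and a partner under another name was not looked for.

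**Figure D3:**
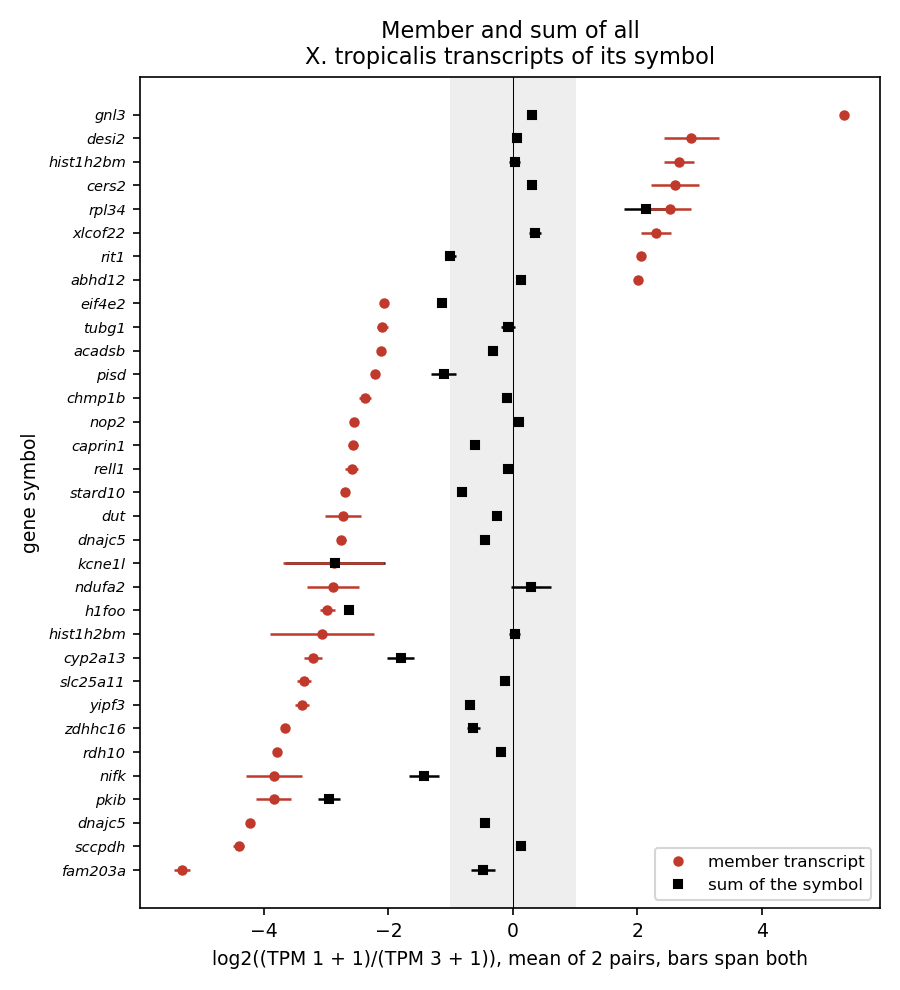
For the 33 members with another *X. tropicalis* transcript at the TPM minimum, the log2 difference between libraries 1 and 3 of the member (red circles) and of the sum over its symbol (black squares), as the mean of the *X. tropicalis* and te × ls pairs with bars spanning both. The grey band marks differences under 1, and 24 of the 33 sums lie within it in both pairs, while those of *rpl34*, *h1foo*, *kcne1l*, *pkib*, *cyp2a13*, *nifk* and *eif4e2* lie outside it in both.

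In the 4 libraries of *X. laevis* eggs, which the rule did not use, the members were close to absent. In le × ts embryos, which carry the *X. tropicalis* genome of the sperm, 0 of 112 members reached 1 TPM in either library, while 7.39% of the 11559 transcripts did. The highest value was 0.495 TPM, for *dctpp1* in library 3. It is listed at 0 in library 1, and library 3 is the shallower of the pair. In *X. laevis* embryos, which have no *X. tropicalis* chromosomes and so give the background, the highest value of a member was 0.480 TPM, for *gsta4*. The members are listed at 0 in both le × ts libraries for 82 of 112, and in all 4 libraries of *X. laevis* eggs for 69. The shares of all 11559 transcripts listed at 0 there were not counted. Low values were common among them, since only 14.8% reached 0.5 TPM in a le × ts library. All *X. tropicalis* transcripts together held 0.678% and 1.02% of TPM in le × ts libraries 1 and 3. A difference between numbers could therefore not be read for any member in le × ts.

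The *X. laevis* transcripts that share a member's symbol give the counterpart of each gene in the libraries of the other egg. Counterparts were matched by symbol alone, so that a shared symbol is no proof of the same gene. For 73 of the 94 symbols the table holds at least 1 *X. laevis* transcript, 120 in all. Library 3 was compared with library 1 over *X. laevis* and le × ts together with limma, with the cross as a term (differences are 3 minus 1, so a positive value is higher in libraries 3), and p-values were adjusted by Benjamini-Hochberg over all 17526 transcripts tested. Each number had 1 library per cross. These p-values therefore measure the spread between the crosses, and not a spread between replicates of a number. A transcript was called at an adjusted p under 0.05 with a log2 difference above 1. This called 13.1% of the 17044 *X. laevis* transcripts tested (8.10% higher in libraries 1 and 5.03% higher in libraries 3). Of the 95 counterparts tested, of 60 symbols, 77 (81.1%) were within 1 in the fit, against 86.5% of all *X. laevis* transcripts tested. The median absolute difference of the 95 was 0.40, against 0.39 over all *X. laevis* transcripts tested. The other 18 counterparts were called (18.9%). In fits with no term for the cross, the count was 2 without *X. laevis* library 1 and 3 without le × ts library 1, but 21 without *X. laevis* library 3 and 14 without le × ts library 3.

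Among the called counterparts 14 differed in the direction of the member, 3 in the opposite direction, and 1, at 0.544 and 0.374 TPM in libraries 1 and 4.37 and 8.14 TPM in libraries 3, belongs to *hist1h2bm*, which has members on both sides. Over all counterparts tested, called or not, 52 had the sign of the member and 40 the opposite sign. By the rule used for the members, past 2 in both pairs, 2 of the 95 counterparts tested qualified, those of *anxa2* and *gsta4*. This is near the share of 1.75% among the 17044 *X. laevis* transcripts, so the count does not set the counterparts apart. The *X. laevis* *anxa2* transcript stood at 4.82 and 3.13 TPM in libraries 1 of *X. laevis* and le × ts, and at 70.5 and 42.6 TPM in libraries 3, a fitted log2 difference of 3.51 (standard error 0.234, adjusted p = 5.59e-05). Both libraries 3 were far above both libraries 1, as for the *X. tropicalis* transcript.

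The *X. laevis* *gsta4* transcript stood at 48.7 and 42.8 TPM in libraries 1 and 9.72 and 7.31 TPM in libraries 3, a fitted log2 difference of -2.31 (standard error 0.231, adjusted p = 0.000328). It was lower in libraries 3 in both species. For *dcxr* both *X. laevis* transcripts were called lower in libraries 3. The more abundant one stood at 33.9 and 28 TPM in libraries 1 and 9.596 and 11.7 TPM in libraries 3, a fitted difference of -1.45 (standard error 0.246, adjusted p = 0.00486). The other stood at 6.46 and 5.76 TPM and 1.93 and 2.38 TPM.

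For *gtpbp3* the counterpart was also lower in libraries 3, at 10.975 and 10.7 TPM in libraries 1 and 4.54 and 2.05 TPM in libraries 3, a fitted difference of -1.52 (standard error 0.28, adjusted p = 0.00713). One of 2 *sncg* transcripts was higher in libraries 3, at 0.29 and 0.594 TPM in libraries 1 and 2.77 and 4.14 TPM in libraries 3, a fitted difference of 1.62 (standard error 0.263, adjusted p = 0.00398). The second *sncg* transcript did not follow, at 6.19 and 9.18 TPM in libraries 1 and 4.43 and 5.17 TPM in libraries 3. Of *rdh10* the called transcript stood at 8.72 and 9.02 TPM in libraries 1 and 22.7 and 19.9 TPM in libraries 3. Of *slc25a11* it stood at 11.4 and 10.5 TPM and 25.3 and 21.6 TPM. Both were higher in libraries 3 like the member transcripts. The *X. tropicalis* sums of these symbols differed far less (1 minus 3), by -0.13 and -0.25 for *rdh10* and by -0.06 and -0.20 for *slc25a11*. The remaining called counterparts in the direction of the member were lower in libraries 3 for *cacnb4* (fitted difference -1.86), *cers2* (-1.098), *cntn5* (-1.199) and *cdr2l* (-1.26), and higher for *cyp2a13* (1.25) and *chrnb4* (1.35). The *cntn5* one was low throughout, at 1.45 and 1.23 TPM in libraries 1 and 0.037 and 0 TPM in libraries 3. That of *cdr2l* differed by 0.50 in *X. laevis* and 2.02 in le × ts (1 minus 3). The same differences were 0.98 and 2.74 for *cacnb4*, and -0.78 and -1.92 for *chrnb4*. The *cacnb4* one is listed at 0 TPM in le × ts library 3, the shallowest of the *X. laevis* egg libraries. Other tested transcripts of these symbols were not called, at -0.54 and 0.13 for *cntn5*, 0.60, -0.21 and 0.06 for *cers2*, -0.63 for *cdr2l* and 0.17 for *cyp2a13*. The *cers2* member held 3.14% of its symbol, and the *X. tropicalis* *cers2* sum differed by 0.30 and 0.32 (1 minus 3).

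The counterparts called in the opposite direction belong to *mc5r*, at 3.63 and 3.73 TPM in libraries 1 and 0.697 and 0 TPM in libraries 3, *acadsb* and *pax7*. The called *acadsb* transcript stood at 24.6 and 21.2 TPM in libraries 1 and 6.39 and 8.92 TPM in libraries 3, while the other *acadsb* transcript stood at 32.5 and 30.3 TPM and 48.5 and 45.968 TPM. The latter had the direction of the member and was not called. The *pax7* counterpart was near 1 TPM, at 0.1 and 0 TPM in libraries 1 and 1.06 and 1.25 TPM in libraries 3. For the 2 most abundant members the counterpart was not called. *X. laevis* *dctpp1* stood at 276 and 252 TPM in libraries 1 and 209 and 249.9 TPM in libraries 3, a fitted difference of -0.21 (standard error 0.241, adjusted p = 0.582). *X. laevis* *h1foo* stood at 525 and 479.5 TPM and 588 and 417 TPM, a fitted difference of -0.02 (standard error 0.251, adjusted p = 0.968). For *klrd1* and *or5v1* the table holds no *X. laevis* transcript of that symbol.

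**Figure D4:**
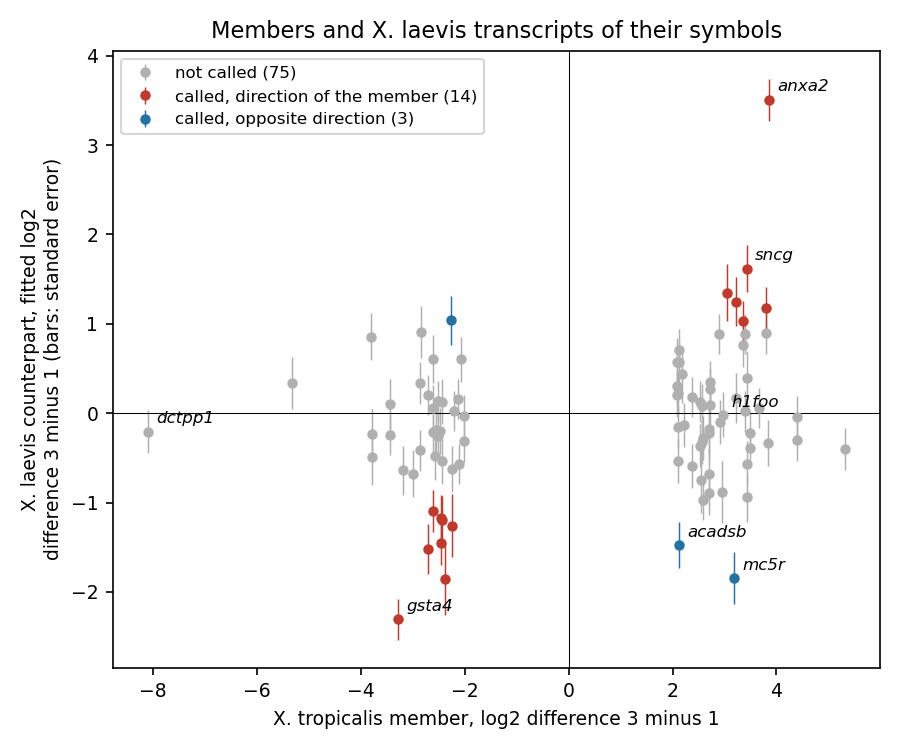
Log2 difference 3 minus 1 of each member's symbol in *X. tropicalis* and te × ls (horizontal axis, mean of members and pairs) against the fitted difference 3 minus 1 of its *X. laevis* counterparts in *X. laevis* and le × ts (vertical axis, bars are standard errors), without the 3 counterparts of *hist1h2bm*. The 14 counterparts called in the direction of the member (red) include *anxa2* at 3.51 and *gsta4* at -2.31, and the 3 called the other way (blue) include *mc5r* at -1.85, while most counterparts lie near 0.

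**Figure D5:**
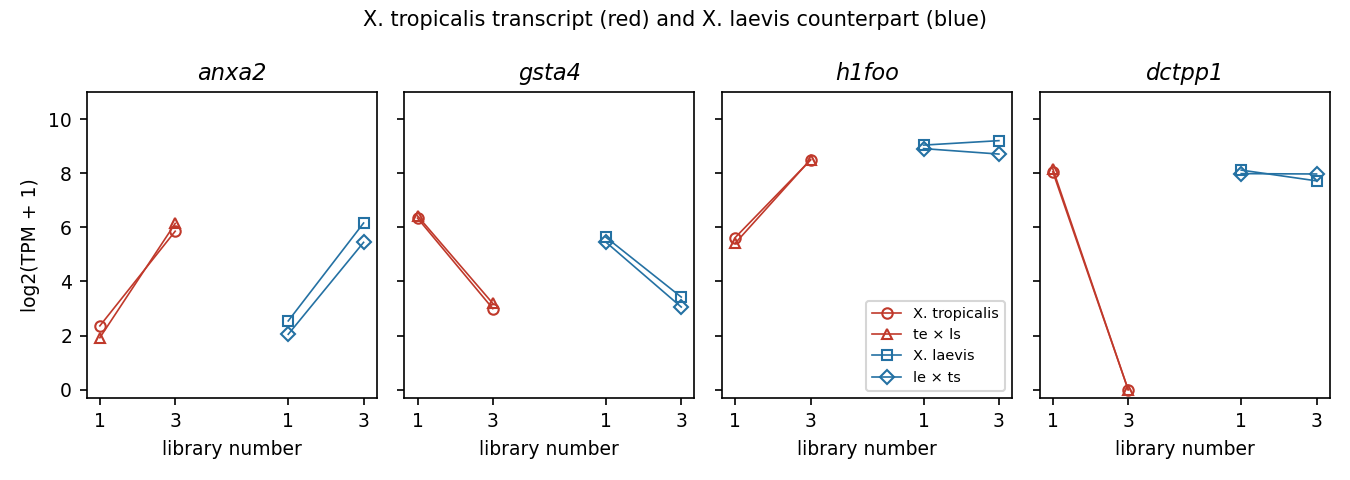
Level on the scale log2(TPM + 1) in libraries 1 and 3 of the *X. tropicalis* transcript (red, in *X. tropicalis* and te × ls) and of the *X. laevis* counterpart (blue, in *X. laevis* and le × ts), for 4 genes, with 1 point per library. The lines of both species slope alike for *anxa2* and *gsta4*, while for *h1foo* and *dctpp1* those of *X. tropicalis* slope steeply and those of *X. laevis* stay near level.

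In te × ls embryos the *X. laevis* genome comes from the sperm, and 2 of the 120 counterparts (1.67%) were at 1 TPM or more in both te × ls libraries. Of all 20611 *X. laevis* transcripts 2.36% were. One is a transcript of *rdh10*, at 1.005 and 1.28 TPM in libraries 1 and 3, while *X. tropicalis* embryos list it at 0. The other is named *gp1bb*, at 2.13 and 1.82 TPM, and stood at 1.67 and 2.07 TPM in *X. tropicalis* embryos, which have no *X. laevis* genome. In *X. laevis* and le × ts this *gp1bb* transcript stood between 5001 and 7286 TPM.

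The comparison of te × ls with *X. tropicalis* embryos is a different contrast from that of the rule, and asks whether the cross changed these transcripts. With limma on log2(TPM + 1) over 12073 transcripts, 0 of 112 members were called, beside 0% of all transcripts. With the library number as a replicate block 1.1% of *X. tropicalis* transcripts and 0 members were called. Without the block, at an unadjusted p under 0.05, there were 0 members and 168 *X. tropicalis* transcripts (1.45%). The fitted differences of the members lay between -0.65 and 0.50 with a median of -0.01, which is also the median over all *X. tropicalis* transcripts. The members could hardly pass the fit without the block, because the rule gave them a large spread within each group. Their median standard error in that fit was 1.34, against 0.198 over all *X. tropicalis* transcripts tested. The fit with the block takes the difference between numbers out of the spread, so that limit is smaller there. Another limit remains, because 62 of 112 members were under 1 TPM in both lower libraries. For those a difference between the crosses could show mainly in the higher pair, so 0 members called says little about them.

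Gene lists chosen with earlier results of these data known were set beside the members. Egg and germ plasm RNAs such as *dazl*, *velo1* and *vegt* were present, with 21 transcripts at the TPM minimum, and all 21 were within 1 in both pairs, beside 91.4% of all transcripts. The list summed to 3735 and 3746 TPM in libraries 1 and to 3622 and 3541 TPM in libraries 3 of *X. tropicalis* and te × ls. Of 36 transcripts of early zygotic genes, such as *nodal3*, *sia2* and *ventx2*, 19 were within 1 in both pairs, beside the 91.4% of all transcripts, and 0 are members, beside the 0.969% of all transcripts. Their summed TPM was 3004 and 2371 in libraries 1 and 4404 and 3159 in libraries 3, higher in libraries 3 of both embryo types, and its part in the members' differences was not tested. Stress and DNA damage genes summed to between 1087 and 1135 TPM in all 4 libraries, with 0 members among 21 transcripts. The members on any list were *h1foo* and *tubg1*, while *rpl34* and *hist1h2bm* are not on the lists of ribosomal proteins and histones. Markers of blood, of sperm and testis and of the follicle and oviduct had 2 of 10, 4 of 12 and 1 of 9 symbols at the minimum and 0 members. The blood list summed to between 126 and 162 TPM, the sperm and testis list to between 42.4 and 59.1 TPM, and the follicle list to 2.28 and 1.66 TPM in libraries 1 and 6.34 and 5.81 TPM in libraries 3. The part of these cells in the members' differences was not tested.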

How the data were processed

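Whole embryos of 4 groups at stage 9 were sequenced in 2 libraries each, numbered 1 and 3. The authors used Bowtie to place paired reads on transcripts of both species in a single database, allowing neither mismatches nor reads with several targets. The deposited TPM values were computed by the authors with RSEM. The submitters' processing notes also name BWA 0.7.10. TPM keeps no depth, and relative reads were estimated from values of 0.03 to 0.3 TPM. Symbols and identifiers are those of the database, and no genome or sequence was used.

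Differences were taken on log2(TPM + 1), which understates the change of low transcripts. Transcripts that reached 1 TPM in 2 or more of the libraries compared were fitted with lmFit and eBayes with a mean trend (limma 3.58.1, R 4.3.3), with p-values adjusted by Benjamini-Hochberg over both species. The fits were tested on simulated data with 200 changed transcripts. The simulated noise was independent between libraries and left out the difference that libraries of a number share. The simulation therefore does not cover that spread. With 2 libraries against 2, a permutation test cannot give a two-sided p under 0.333. Other pseudocounts, filters, scalings, fits and each library left out were tried.

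Members and gene lists were chosen with earlier results of these data known. Named with values are the widest 15 named and 2 unnamed members of each direction, the 5 most abundant, members on a list, those near the cutoff, and those whose partner or counterpart moved; functional sets, and further members named within them, were chosen after values were seen. The values of some members are not reported here.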

Additional observations from a re-analysis of the deposited data

Results flagged for a closer look

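Some *X. laevis* counterparts moved against their member, with both *X. laevis* egg pairs differing by more than 1 in one direction and both *X. tropicalis* egg pairs in the other. The counterpart of *acadsb*, Ueno201210intestine_000131396, had a fitted log2 difference of -1.48 (3 minus 1), while the *X. tropicalis* member was higher in libraries 3. That member held 35.9% of its symbol, and the *X. tropicalis* *acadsb* sum differed by only -0.37 and -0.28 (1 minus 3). The more abundant *X. laevis* *acadsb* transcript had the direction of the member and was not called. The counterpart of *mc5r*, Taira201203brain_000220719, had a fitted difference of -1.85, at 3.63 and 3.73 TPM in libraries 1 and 0.697 and 0 TPM in libraries 3 of *X. laevis* and le × ts. The difference between the eggs was not tested.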

How the results depend on the processing

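The number of members, 112, moved to 233 with a pseudocount of 0.1, to 223 with a cutoff of 1.5 and to 59 with a cutoff of 2.5. All 112 are among the 233 and the 223. It stayed within 1.5 times under the other 5 settings, with 107 of the members kept under quantile normalization (113 in all) and 101 at a minimum of 5 TPM. No member changed its direction under other pseudocounts or scalings. For te × ls against *X. tropicalis*, where 0 transcripts were called, a replicate block by library number called 454, pseudocounts of 0.1 and 0.5 called 230 and 26, and all 4 groups in 1 fit called 201, with 0 members among them in each. Leaving out 1 library gave between 0 and 30, the latter without *X. tropicalis* library 3. The labels do not say that a number pairs libraries. The deviations of libraries 1 and 3 correlated across transcripts at 0.858 between *X. tropicalis* and te × ls, and at 0.783 between *X. laevis* and le × ts. For number 3 against number 1 in *X. laevis* eggs, 2258 transcripts of both species were called, 603 with no filter, and between 225 and 3387 without 1 library and without the cross term (225 without *X. laevis* library 1, 358 without le × ts library 1). The count of counterparts called, 18, moved to 3 with no filter and 11 at 5 TPM, and lay between 2 and 21 without 1 library. No called counterpart reversed. The causes were not tested. Members listed at 0 in a pair, and *X. tropicalis* library 3 with the fewest reads, limit how far low values can be told from absence.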
